A study of Mus musculus with 10 samples.

Results

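The nuclear genes for the subunits of the mitochondrial respiratory chain and ATP synthase were examined in C2C12 cells, a mouse myoblast line that fuses into myotubes when serum is lowered. Genes were taken by symbol, as those with a protein-coding transcript type and a name beginning with Nduf (followed by a, b, c, s or v and a number), Uqcr, Cox4 to Cox8 or Atp5, together with *Sdha*, *Sdhb*, *Sdhc* and *Sdhd*, and pseudogene names ending in -ps were left out. The table gave 87 such genes of 55359, of which 39 were assigned to complex I, 4 to complex II, 8 to complex III, 18 to complex IV and 18 to complex V. RNA-seq libraries had been made in 2 groups of 5, from cells that received *Fndc1* siRNA (si-*Fndc1*) or scrambled siRNA (si-Control) at 100 nM. All were differentiated in high-glucose medium containing 2% horse serum. According to the labels the cells of both groups were collected on day 4 of differentiation, whereas the text of the series says 48 h after transfection. C2C12 is 1 immortal line, and the sources do not say of these libraries that the 5 of a group came from separate cultures (the methods state in general that experiments were repeated independently), so the p-values may measure only technical spread between libraries.

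The respiratory chain passes electrons from NADH and succinate to oxygen and pumps protons across the inner mitochondrial membrane, and ATP synthase uses the returning protons to make ATP. Complex I oxidises NADH, complex II oxidises succinate, complex III hands electrons to cytochrome c, complex IV (cytochrome c oxidase) reduces oxygen, and complex V is ATP synthase. Most subunits are encoded in the nucleus and a minority in mitochondrial DNA, and several subunits of complex IV exist in a widespread and a muscle form, the latter appearing as muscle matures.

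The si-Control libraries held 66771605 to 75995168 counted reads and the si-*Fndc1* libraries 56332844 to 72839369. *Fndc1* itself, which encodes a fibronectin type III domain protein, was present at 26.7, 24.7, 28.7, 29.6 and 29.2 FPKM (a count divided by gene length and by the total of its library) in si-Control 1 to 5 and at 20.4, 23.5, 20.8, 21.1 and 18.7 FPKM in si-*Fndc1* 1 to 5. The 2 groups did not overlap, and *Fndc1* fell by 0.40 on the log2 scale (adjusted p = 0.000934). Here and throughout, a p-value is from the quasi-likelihood test of edgeR, adjusted over all genes tested by the Benjamini-Hochberg method. When GC content and gene length were corrected for in each library, *Fndc1* was at -0.07 (adjusted p = 0.301). The GC content of *Fndc1* is 60.1% and its length 10976 bases. Whether this correction also takes away change due to the knockdown, here or in other genes, was not tested. Of 9 myotube markers 2 (*Mymk* and *Ckm*) were called higher and 1 (*Ttn*) lower, against 17.3% and 17.2% of all genes tested. The summed FPKM of the 9 markers ranged over 4872.9 to 5285.0 (si-Control) and 4664.1 to 5354.2 (si-*Fndc1*), with *Acta1* and *Tnnc1* at the highest levels. After the correction *Mymk* (0.18, adjusted p = 0.165) and *Ttn* (0.1, adjusted p = 0.302) were not called. *Ckm* was still higher, and *Myog* was called lower (-0.18, adjusted p = 0.0176). The 5 markers of proliferating myoblasts, with no call, summed to 21.0 to 22.9 and 21.3 to 23.2 FPKM. Among them *Myf5* was called lower after the correction (-0.22, adjusted p = 0.013). All 11 hepatocyte markers were higher in si-*Fndc1*, at a summed FPKM of 49.1 to 177.9 against 0.0 to 6.28, and the part of this signal in the results below was not tested. The brown adipocyte markers *Ucp1*, *Cidea*, *Adipoq* and *Plin1* were listed at 0 in all 10 libraries. The 2 heart muscle markers summed to 1.25 to 2.36 FPKM (si-Control) and 1.04 to 1.82 FPKM (si-*Fndc1*), and the 5 of blood and endothelium to 0.422 to 1.54 and 1.26 to 2.36. In each of these lists 1 marker, *Myh6* and *Hba-a1*, reached the level filter, and neither was called. *Hbb-bs*, a globin gene below the filter, had a mean of 0.00317 FPKM in si-Control and 0.33 in si-*Fndc1*. In bulk RNA, fewer cells of a type and less RNA per cell cannot be told apart.

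Respiratory chain transcripts were on balance more abundant in si-*Fndc1*. The summed FPKM of the members was 4294.5 ± 156.3 (SD, n = 5) in si-Control and 4924.9 ± 191.4 in si-*Fndc1*, a ratio of 1.15, and the libraries ranged from 4159.3 to 4565.2 and from 4629.0 to 5092.0. Of the 80 members with a mean of at least 0.5 FPKM, 45 were called higher and 1 lower at an adjusted p under 0.05, while 34 were not called. Over all 13548 genes tested, 17.3% were called higher and 17.2% lower. The log2 fold changes of the 80 members ran from -0.41 to 0.72 with a median of 0.24, the median of all tested genes being 0.00, and 66 were positive. For 34 members (42.5%) every si-*Fndc1* library lay above every si-Control library in counts scaled to library size, against 12.8% of all tested genes. For 1 member, *Sdha*, the 2 groups lay apart the other way, against 12.3% of all tested genes. With each library left out in turn, 38 of the 45 were called higher in all 10 fits, and the exceptions were *Ndufb5*, *Ndufs1*, *Ndufs5*, *Cox8b*, *Atp5j2*, *Atp5md* and *Atp5mpl*, whose adjusted p-values rose to 0.105 at most.

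**Figure D1:**
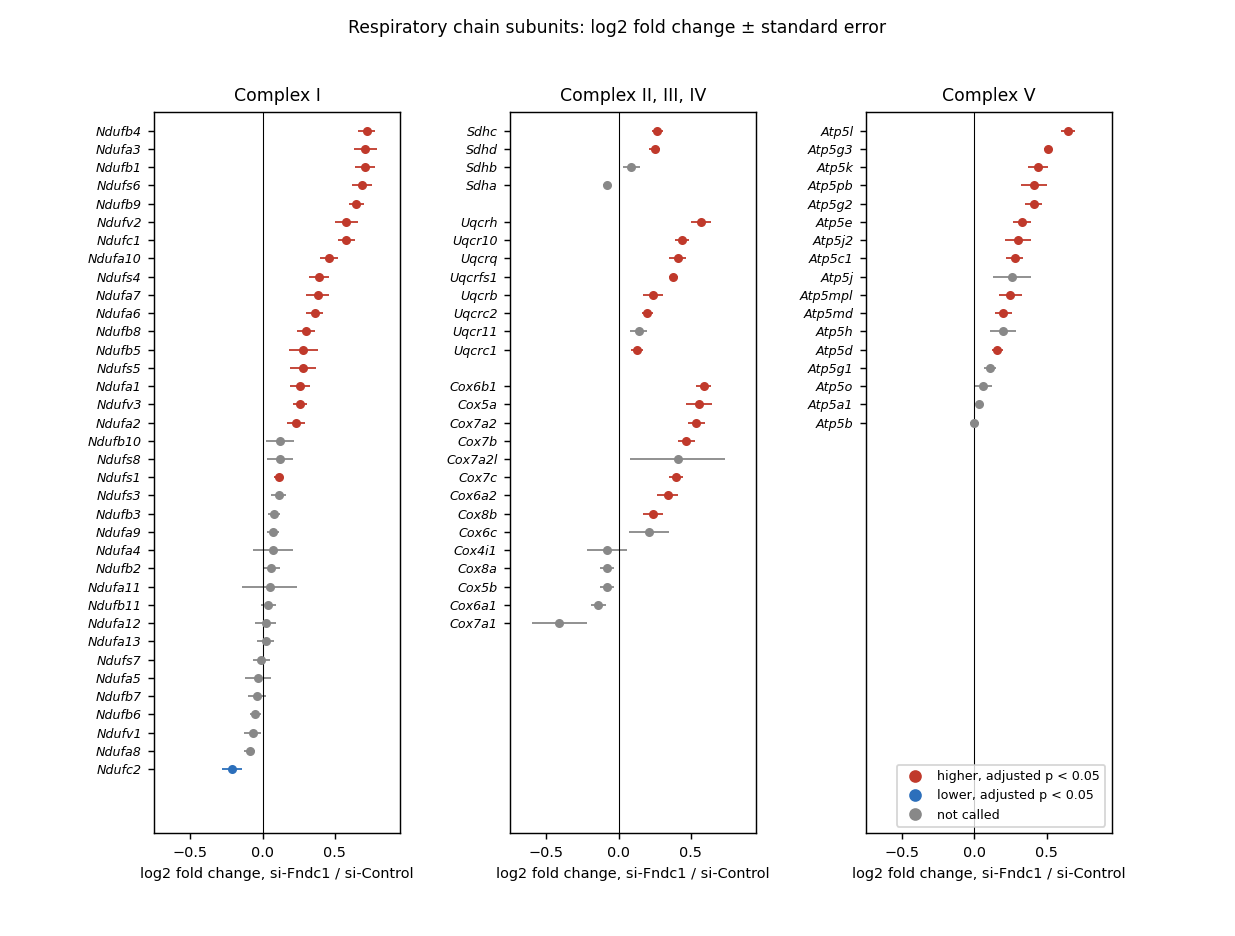
Log2 fold change (si-*Fndc1* over si-Control, horizontal axis) with its standard error for 79 of the 80 tested subunit genes, in panels by complex, with red for genes called higher, blue for lower and grey for not called at an adjusted p of 0.05. The values run from -0.41 (*Cox7a1*) to 0.72 (*Ndufb4*), and *Ndufc2* is the 1 gene called lower.

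These counts changed when GC content and length were corrected for. Across all 11185 genes with a GC content, the log2 fold change fell with GC content (Spearman's rho -0.53) and with length (-0.20), and across the 79 members the values were -0.29 and 0.01. These are descriptions across genes, which share the 10 libraries. The members were short, with a median length of 1755 bases against 4274 for all tested genes, and their median GC content was 52.3% against 51.1%. After an offset for GC content and length in every library, 30 of 79 members were higher and 11 lower, with a median log2 fold change of 0.10, and over all genes 11.4% were higher and 12.2% lower, with a median of -0.01. Of the 44 members called higher that could be corrected, 28 were also called higher after the correction. Across the 79 members, rho after the correction was 0.16 with GC content and 0.29 with length. Across all 11185 genes it was -0.0 and 0.02, so the offset levelled the trends over all genes. Among the members the trend with GC content changed sign, from -0.29 to 0.16, and rho with length rose from 0.01 to 0.29. *Uqcrb* changed sides, from 0.24 to -0.20 (adjusted p = 0.00635), and it encodes a subunit of complex III that lies near the ubiquinone site.

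**Figure D2:**
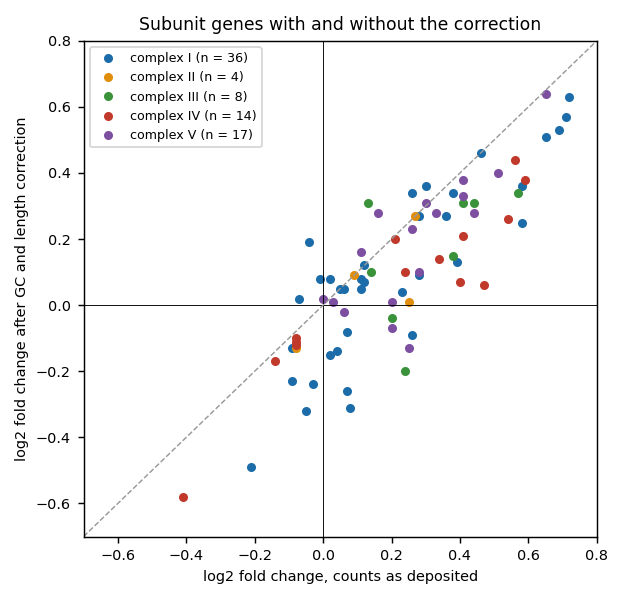
Log2 fold change of 79 subunit genes from the counts as deposited (horizontal axis) and with both properties corrected for (vertical axis), coloured by complex, with a dashed line of equal values. Most points lie below the line, the median moving from 0.24 to 0.10, and *Ndufb4* (0.72 and 0.63) and *Atp5l* (0.65 and 0.64) stay at the upper right.

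Promoter windows were looked at because genes of the respiratory chain are known targets of the factors NRF1, GABP (an ETS factor) and YY1. RefSeq windows (build GRCm38.p6, 250 bases before to 50 after the start site) were found for 67 of the 80 tested members. The letters CGCATGCGC or their reverse complement GCGCATGCG (NRF1) occurred in 8 members (11.9%) and in 1.95% of 27025 genes. Those 27025 are all genes with a window, expressed in these cells or not, so the members were not compared with genes of similar expression. CCGGAAG or its reverse complement CTTCCGG (ETS) occurred in 17 members (25.4%) and in 9.93% of genes, and AAGATGGCG or CGCCATCTT (YY1) in 7 members (10.4%) and in 1.64% of genes. The muscle E-box CAGCTG occurred in 6 members (8.96%) and in 18.3% of genes. Among the 36 members with a window that were called higher and the 31 others, the shares were 11.1% and 12.9% for NRF1, 19.4% and 32.3% for ETS, 11.1% and 9.68% for YY1, and 8.33% and 9.68% for the E-box. Both strands were searched, an ETS match can share the letters AAG with a YY1 match, and a match describes the window and is no evidence of binding.

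For each of the 3 factors, 1 window is shown, that of the member called higher with the largest log2 fold change that held a match and was not already shown, beside that of *Atp5b*, whose log2 fold change lay nearest to 0. Capitals mark the matches, which begin at -241 (NRF1), -212 and 24 (ETS) from the start site in *Atp5l*, at -28 (ETS) in *Cox6b1*, at 33 (YY1) in *Ndufs6* and at -39 (E-box) in *Atp5b*. On build GRCm38.p6 the windows lie at chr9:44920693-44920992 (minus strand, *Atp5l*), chr7:30626065-30626364 (minus strand, *Cox6b1*), chr13:73328433-73328732 (minus strand, *Ndufs6*) and chr10:128083057-128083356 (plus strand, *Atp5b*), and each is printed 5′ to 3′ along its gene.
Atp5l: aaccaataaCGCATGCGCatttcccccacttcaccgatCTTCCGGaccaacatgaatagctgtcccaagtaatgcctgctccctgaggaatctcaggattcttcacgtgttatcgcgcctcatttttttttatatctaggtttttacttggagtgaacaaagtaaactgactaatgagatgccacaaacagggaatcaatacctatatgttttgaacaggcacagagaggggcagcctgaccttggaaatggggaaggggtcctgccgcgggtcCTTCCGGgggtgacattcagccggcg
Cox6b1: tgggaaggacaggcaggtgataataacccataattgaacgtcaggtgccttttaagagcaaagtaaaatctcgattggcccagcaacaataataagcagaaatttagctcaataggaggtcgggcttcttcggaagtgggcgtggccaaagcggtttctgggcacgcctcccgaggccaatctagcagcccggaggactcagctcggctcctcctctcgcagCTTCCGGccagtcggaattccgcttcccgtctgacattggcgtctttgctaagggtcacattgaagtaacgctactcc
Ndufs6: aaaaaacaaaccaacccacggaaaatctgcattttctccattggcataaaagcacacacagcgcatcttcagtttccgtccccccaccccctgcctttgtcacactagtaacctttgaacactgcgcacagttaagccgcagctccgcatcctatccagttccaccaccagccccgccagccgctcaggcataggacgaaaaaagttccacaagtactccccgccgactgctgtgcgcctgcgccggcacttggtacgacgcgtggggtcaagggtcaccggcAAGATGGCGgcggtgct
Atp5b: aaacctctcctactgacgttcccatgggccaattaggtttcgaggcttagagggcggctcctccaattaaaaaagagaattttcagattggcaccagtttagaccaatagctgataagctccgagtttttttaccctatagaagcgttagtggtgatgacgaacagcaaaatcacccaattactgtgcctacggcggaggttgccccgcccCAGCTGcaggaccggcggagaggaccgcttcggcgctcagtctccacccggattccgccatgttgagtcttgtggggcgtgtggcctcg

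Complex I, the largest of the complexes, gave 18 members called higher and 1 lower of 37 tested, with a median log2 fold change of 0.12 and a summed FPKM of 1468.6 ± 71.7 in si-Control and 1660.7 ± 73.9 in si-*Fndc1*. After the correction 12 of 36 were higher and 7 lower. The shares over all genes were 17.3% higher and 17.2% lower, and after the correction 11.4% and 12.2%. The 7 nuclear-encoded core subunits, which carry the flavin and the iron-sulfur clusters, gave 2 higher and 0 lower with a median of 0.11. In the N module, where NADH is oxidised, 6 of 8 were higher (median 0.25), in the Q module next to the ubiquinone site 2 of 8 (median 0.09), and among 20 accessory subunits of the membrane arm and elsewhere 10 were higher and 1 lower (median 0.19). After the correction the medians lay close together, at 0.09 in the N module and 0.08 in the Q module, the core subunits and the last group, and 3 of 8 were higher in the N module, while in the Q module 2 of 8 were higher and 2 lower.

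The largest log2 fold change of all members was that of *Ndufb4*, an accessory subunit of the membrane arm. It was present at 19.0, 21.9, 20.2, 19.1 and 18.4 FPKM in si-Control 1 to 5 and at 31.4, 30.3, 32.2, 34.8 and 33.3 FPKM in si-*Fndc1* 1 to 5. The groups lay far apart, with a log2 fold change of 0.72 (SE 0.06, adjusted p = 1.66e-05), and it was 0.63 after the correction. *Ndufb9*, another subunit of the membrane arm, was at 86.2, 88.4, 79.9, 75.9 and 79.3 FPKM in si-Control and, on average, at 127.7 ± 4.04 FPKM in si-*Fndc1*, whose lowest library reached 121 FPKM. Its log2 fold change was 0.65 (SE 0.05, adjusted p = 1.17e-05). *Ndufs6*, a zinc-binding accessory subunit of the N module, rose from 29.1 ± 1.55 to 46.8 ± 3.97 FPKM, a log2 fold change of 0.69 (SE 0.07, adjusted p = 4.08e-05). *Ndufb1* and *Ndufa3*, small membrane-arm subunits, rose by 0.71 each on the log2 scale, and *Ndufc1*, of the same arm, by 0.58. After the correction *Ndufc1* was at 0.25 and *Ndufa3* at 0.57, while *Ndufb1*, for which no GC content was available, could not be corrected. *Ndufb1* overlaps *Cpsf2* and *Ndufa3* overlaps *Tfpt*, both expressed from the opposite strand, and the sources do not state if reads were assigned by strand. The neighbours' mean counts were 172.86% and 37.55% of those of *Ndufb1* and *Ndufa3*.

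Core subunits differed among themselves. *Ndufv2*, an iron-sulfur core subunit of the N module, was at 24.1, 30.2, 30.8, 29.1 and 24.7 FPKM in si-Control and at 43.8, 38.1, 37.9, 39.8 and 46.9 FPKM in si-*Fndc1*. The groups did not overlap and it rose by 0.58 (SE 0.08, adjusted p = 0.000412), and by 0.36 after the correction. *Ndufv1*, its partner that binds NADH and flavin mononucleotide, was at 27.8, 24.2, 28.3, 26.1 and 23.6 FPKM and at 24.8, 22.5, 25.7, 25.4 and 25.0 FPKM. Here the groups overlapped, with a log2 fold change of -0.07 (SE 0.06, adjusted p = 0.407). *Ndufs1*, the subunit with the most iron-sulfur clusters, had a small rise of 0.11 (SE 0.03, adjusted p = 0.0266), which lost its call without si-Control 3, si-Control 5 or si-*Fndc1* 3 (adjusted p = 0.0639, 0.0637 and 0.0537), after the correction (0.05, adjusted p = 0.324) and in the fit blocked on replicate number (adjusted p = 0.102).

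*Ndufs3*, *Ndufs7* and *Ndufs8*, core subunits of the Q module, gave 0.11, -0.01 and 0.12, with adjusted p-values of 0.1, 0.901 and 0.332. *Ndufc2*, an accessory subunit of the membrane arm, was the member called lower, at 42.4, 50.9, 43.9, 43.6 and 44.8 FPKM against 36.7, 36.5, 40.6, 36.9 and 44.0 FPKM. The groups overlapped through si-*Fndc1* 5, the log2 fold change was -0.21 (SE 0.07, adjusted p = 0.0397), and the call was lost in 7 of the 10 fits without 1 library. *Ndufc2* was not called in the fit blocked on replicate number (adjusted p = 0.0759), but after the correction it was lower, at -0.49 (adjusted p = 9.68e-05). The lowest level among tested members of complex I was that of *Ndufb2*, at 4.53 ± 0.311 and 4.71 ± 0.267 FPKM, and its gene overlaps *Braf* on the opposite strand. *Ndufa12*, an N-module subunit, was not called (log2 fold change 0.02), and the pseudogene *Ndufa12-ps*, kept apart in the table, held 2276 to 3863 counts per library.

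**Figure D3:**
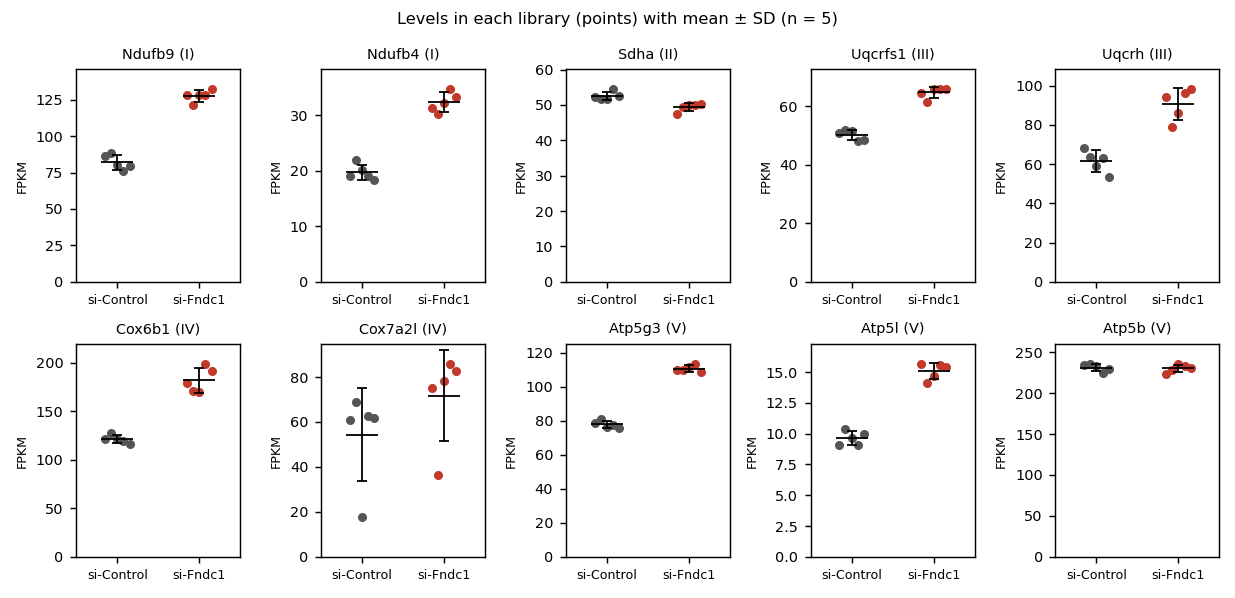
FPKM of 10 subunit genes (complex in brackets) in each si-Control and si-*Fndc1* library (points), with the mean and SD of 5 libraries, each axis starting at 0. *Ndufb9*, *Ndufb4*, *Uqcrfs1*, *Uqcrh*, *Cox6b1*, *Atp5g3* and *Atp5l* show groups apart with si-*Fndc1* higher, *Atp5b* shows groups at the same level, and *Cox7a2l* shows the low libraries si-Control 3 (17.6) and si-*Fndc1* 2 (36.5).

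In complex II the 2 membrane anchors were called higher and the 2 catalytic subunits were not called, where 17.3% of all genes tested were called higher. *Sdhc*, an anchor, was at 20.9, 18.7, 21.1, 19.9 and 18.9 FPKM in si-Control and at 24.3, 22.5, 24.3, 24.2 and 23.7 FPKM in si-*Fndc1*, and rose by 0.27 (SE 0.04, adjusted p = 0.000868). *Sdhd*, the other anchor, was at 60.2, 64.9, 65.7, 64.8 and 63.3 FPKM and at 72.1, 69.8, 77.7, 78.0 and 79.4 FPKM, and rose by 0.25 (SE 0.04, adjusted p = 0.0012). In both anchors the groups stood apart, but after the correction *Sdhc* was at 0.27 and *Sdhd* at 0.01 (adjusted p = 0.892). *Sdha*, the flavoprotein that oxidises succinate, was at 52.1, 51.7, 51.6, 54.6 and 52.5 FPKM and at 47.3, 49.3, 50.1, 50.0 and 50.4 FPKM. Its groups also stood apart, in the other direction, with a log2 fold change of -0.08 (SE 0.03) that narrowly missed the threshold (adjusted p = 0.0534) and was called lower after the correction (-0.13, adjusted p = 0.00481). *Sdhb*, the iron-sulfur subunit, was not called, at 0.09 (SE 0.06, adjusted p = 0.312).

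Complex III had the highest share of members called higher, 7 of 8 with 0 lower, though shares were not tested between complexes. It also had the largest ratio of summed FPKM, 1.24, from 482.6 ± 21.9 to 600.6 ± 29.1. The median log2 fold change was 0.31, and after the correction 5 were higher and 1 lower with a median of 0.23. Shares over all genes were 17.3% higher and 17.2% lower, and after the correction 11.4% and 12.2%. *Cyc1* and the mitochondrially encoded *mt-Cytb*, also of complex III, fall outside the member list. *Cyc1* was called lower (-0.36, adjusted p = 0.00101) and *mt-Cytb* was not called (0.11, adjusted p = 0.116). After the correction both were lower, at -0.28 and -0.35 (adjusted p = 0.00552 and 6.79e-05). *Uqcrfs1*, the Rieske iron-sulfur protein that passes electrons on, was at 50.8, 52.1, 51.5, 48.3 and 48.5 FPKM in si-Control and at 64.7, 61.7, 65.9, 66.1 and 65.9 FPKM in si-*Fndc1*. It rose by 0.38 (SE 0.03, adjusted p = 3.58e-05), and by 0.15 after the correction. *Uqcrh*, the hinge protein that contacts the cytochrome c site, was at 68.0, 63.5, 59.2, 63.2 and 53.5 FPKM and at 93.9, 79.0, 86.0, 96.4 and 98.4 FPKM. It rose by 0.57 (SE 0.07, adjusted p = 0.000212), and by 0.34 after the correction, and the opposite-strand gene *Gm12854* overlaps it, at 27.53% of its mean count. *Uqcr10* and *Uqcrq*, small accessory subunits, rose by 0.44 and 0.41, with groups apart. The core proteins *Uqcrc1* and *Uqcrc2*, which carry no redox centre, rose less, by 0.13 and 0.20 (adjusted p = 0.02 and 0.00235). After the correction *Uqcrc1* was at 0.31 and *Uqcrc2* at -0.04. *Uqcr11*, the smallest subunit, was not called, at 0.14 (SE 0.06, adjusted p = 0.113).

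In complex IV 7 of 14 tested members were higher and 0 lower, the median log2 fold change was 0.29, and the summed FPKM was 1106.9 ± 35.3 and 1247.0 ± 55.3. Among all genes tested, 17.3% were called higher and 17.2% lower. After the correction 3 members of complex IV were higher and 2 lower with a median of 0.08, against 11.4% and 12.2% of all genes. *Cox6b1*, on the intermembrane face where cytochrome c docks, was at 121, 128, 121, 119 and 117 FPKM in si-Control and at 179, 171, 169, 199 and 191 FPKM in si-*Fndc1*. The groups stood apart by more than the range of either, and the log2 fold change was 0.59 (SE 0.05, adjusted p = 2e-05). *Cox5a*, a subunit on the matrix side, was at 27.6, 29.4, 27.3, 27.0 and 26.9 FPKM and at 41.5, 31.2, 46.1, 42.2 and 41.2 FPKM. It rose by 0.56 (SE 0.09, adjusted p = 0.000674), and si-*Fndc1* 2 lay near the si-Control libraries. *Cox7a2*, the widespread form of subunit VIIa, rose by 0.54 (adjusted p = 9.23e-05), *Cox7b* by 0.47 (adjusted p = 0.000205) and *Cox7c* by 0.40 (adjusted p = 0.000214). After the correction *Cox7a2* was at 0.26 and still called, and *Cox6b1* at 0.38, whereas *Cox7b* and *Cox7c* were at 0.06 and 0.07, with adjusted p-values of 0.156 and 0.166.

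The 3 transcripts of complex IV with the highest FPKM in si-Control, *Cox6a1*, *Cox8a* and *Cox4i1*, were not called. *Cox6a1*, the widespread form of subunit VIa, was at 213.1 ± 10.8 FPKM in si-Control and 192.7 ± 11.9 in si-*Fndc1*, not called at -0.14 (adjusted p = 0.0585) but called lower in DESeq2, in limma and after the correction. *Cox8a*, the widespread form of subunit VIII, gave -0.08 (adjusted p = 0.225), as did *Cox5b*, the zinc-binding subunit, at -0.08 (adjusted p = 0.208). The pseudogene *Cox5b-ps*, counted apart, held 796 to 1134 counts. *Cox4i1*, the regulatory subunit IV, spread widely, at 126, 102, 136, 147 and 159 FPKM in si-Control and 122, 159, 95.1, 140 and 114 FPKM in si-*Fndc1*, and was at -0.08 (SE 0.14, adjusted p = 0.71). That SE exceeded those of *Cox8a* and *Cox5b*, 0.05 each. *Emc8* overlaps *Cox4i1* on the opposite strand, at 14.24% of its mean count.

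*Cox7a2l*, which holds complexes III and IV together in supercomplexes, turned on 2 of its libraries. Its FPKM was 60.7, 68.7, 17.6, 62.8 and 61.6 in si-Control and 75.1, 36.5, 78.2, 86.0 and 82.8 in si-*Fndc1*. si-Control 3 and si-*Fndc1* 2 stood apart from the rest of their groups, and with all libraries the log2 fold change was 0.41 (SE 0.33, adjusted p = 0.375). Without both, an exclusion chosen after the data were seen, it was 0.35 (adjusted p = 0.00226). Over the members as a whole these libraries stood less far apart. The median deviation of the 80 members from their mean over the 10 libraries, on the log2 scale, was -0.137 in si-Control 3 and 0.017 in si-*Fndc1* 2, and it ranged from -0.164 to -0.002 over si-Control and from 0.017 to 0.17 over si-*Fndc1*. si-Control 2 was the highest of its group in 53 of the 80 members and si-*Fndc1* 2 the lowest of its group in 48, so these libraries lay nearest to the other group.

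**Figure D4:**
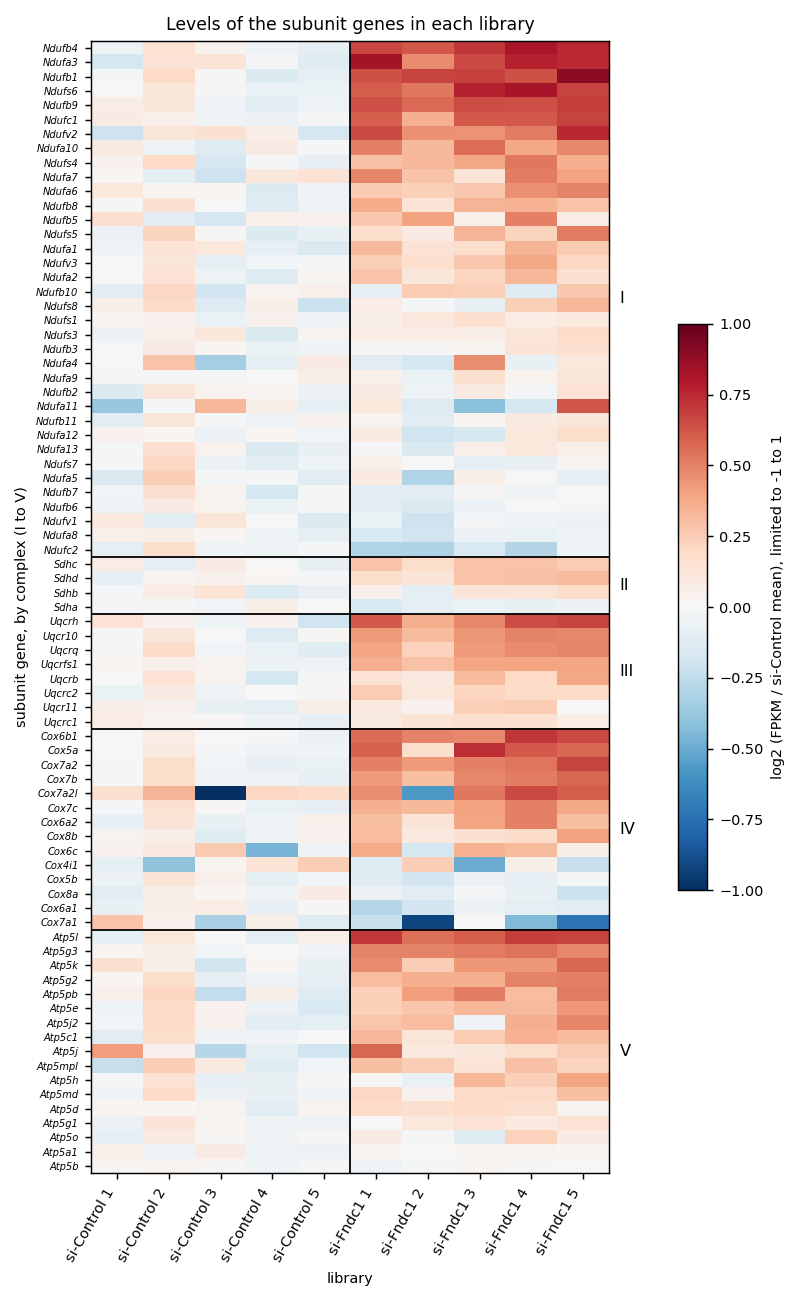
Level of 79 of the 80 tested subunit genes (rows, grouped by complex I to V and ordered by log2 fold change) in the 10 libraries (columns), as the log2 ratio of its FPKM to the si-Control mean, with red for higher, blue for lower and colours limited to -1 to 1. Red fills the upper rows of each complex in the si-*Fndc1* columns, and the row of *Cox7a2l* shows the low values of si-Control 3 (17.6 FPKM) and si-*Fndc1* 2 (36.5 FPKM).

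In complex V 11 of 17 tested members were higher and 0 lower, with a median log2 fold change of 0.26. The summed FPKM was 1064.6 ± 40.5 in si-Control and 1230.2 ± 34.7 in si-*Fndc1*. After the correction 9 were higher and 0 lower with a median of 0.23. Of all genes, 17.3% were called higher and 17.2% lower, and after the correction 11.4% and 12.2%. The subunits of the catalytic head that bind nucleotides had log2 fold changes near 0. *Atp5b*, the catalytic beta subunit, was at 234, 236, 233, 225 and 229 FPKM in si-Control and at 224, 228, 236, 234 and 230 FPKM in si-*Fndc1*, a log2 fold change of 0.00 (SE 0.03, adjusted p = 0.986). *Atp5a1*, the alpha subunit, was at 136.0 ± 6.11 and 137.8 ± 0.846 FPKM, a log2 fold change of 0.03 (SE 0.03, adjusted p = 0.579). The gamma subunit *Atp5c1*, the rotating shaft, rose by 0.28 (SE 0.06, adjusted p = 0.00373), and was at 0.10 after the correction (adjusted p = 0.173).

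*Atp5g3*, a gene for the subunit c that forms the rotating ring, was at 78.8, 81.0, 76.4, 77.5 and 75.9 FPKM in si-Control and at 110, 110, 112, 114 and 109 FPKM in si-*Fndc1*. It had the smallest adjusted p of all members (5.57e-06) with a log2 fold change of 0.51 (SE 0.03), and 0.40 after the correction. *Atp5l*, the subunit g that sits at the dimer interface, was at 9.07, 10.4, 9.67, 9.07 and 10.0 FPKM and at 15.7, 14.1, 14.7, 15.6 and 15.4 FPKM. It rose by 0.65 (SE 0.05, adjusted p = 1.5e-05) and stayed at 0.64 after the correction. *Atp5k*, the subunit e of the same interface, rose by 0.44 (adjusted p = 0.000912) and *Atp5pb*, the stalk subunit b, by 0.41 (adjusted p = 0.00396), and after the correction they were at 0.28 and 0.33. *Atp5md* and *Atp5mpl*, small membrane subunits, rose by 0.20 and 0.25 (adjusted p = 0.0238 and 0.0354), but were at -0.07 and -0.13 after the correction and not called. *Atp5pb* overlaps *Wdr77* on the opposite strand, at 19.33% of its mean count. *Atp5d* and *Atp5e*, the small subunits at the foot of the shaft, rose by 0.16 and 0.33, and were at 0.28 each after the correction. *Atp5o*, the collar protein that joins stalk and head, was not called (0.06, adjusted p = 0.436), nor was *Atp5j*, another stalk subunit (0.26, SE 0.13, adjusted p = 0.157). *Atp5j* was called higher without si-Control 1 (0.39, adjusted p = 0.0178) and in the fit blocked on replicate number (adjusted p = 0.025). It was not called after the correction (0.23, adjusted p = 0.25). *Gabpa* overlaps *Atp5j* on the opposite strand, at 117.01% of its mean count.

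Several subunits are encoded by more than one gene, and the share of each gene in the FPKM of its set was compared as a description with no test. *Cox6a2*, the form of heart and skeletal muscle, made up 21.6%, 22.5%, 20.0%, 22.1% and 22.1% of subunit VIa in si-Control and 29.4%, 25.6%, 27.4%, 29.6% and 26.8% in si-*Fndc1*. *Cox8b*, the muscle form of subunit VIII, made up 12.3% to 14.7% and 14.8% to 19.2%, so that both muscle forms had a higher share in si-*Fndc1* with no overlap. *Cox7a1*, the muscle form of subunit VIIa, went the other way, at 10.3%, 7.86%, 7.09%, 9.32% and 8.22% in si-Control and 5.33%, 3.58%, 6.22%, 4.54% and 3.39% in si-*Fndc1*. The levels behind these shares differed in kind. *Cox6a2* and *Cox8b* rose by 0.34 (adjusted p = 0.00371) and 0.24 (adjusted p = 0.0207), both not called after the correction, at 0.14 and 0.10. The call of *Cox8b* was lost without si-Control 3 or si-*Fndc1* 1 (adjusted p = 0.0525 and 0.0502). *Cox7a1* itself was low, at 4.0 ± 0.624 and 2.98 ± 0.766 FPKM, and not called (-0.41, SE 0.19, adjusted p = 0.125), whereas *Cox7a2* in the denominator rose. After the correction *Cox7a1* was called lower, at -0.58 (adjusted p = 0.0437), and *Cox7a2* was at 0.26.

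Subunit c of ATP synthase is encoded by a trio of genes with one mature protein. *Atp5g1* made up 8.76% to 9.71% of their FPKM in si-Control and a smaller share in si-*Fndc1*, 7.04% to 7.68%, with no overlap. *Atp5g2* (49.3% ± 1.22 and 48.7% ± 1.44) and *Atp5g3* (41.5% ± 1.12 and 44.0% ± 1.38) overlapped in share. *Atp5g1* was not called in level (0.11, adjusted p = 0.0936) but was called higher after the correction (0.16, adjusted p = 0.0281), while *Atp5g2* and *Atp5g3* rose by 0.41 and 0.51. *Ndufa4*, named for complex I but known as a subunit of complex IV, was at 0.07 (SE 0.14, adjusted p = 0.737).

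**Figure D5:**
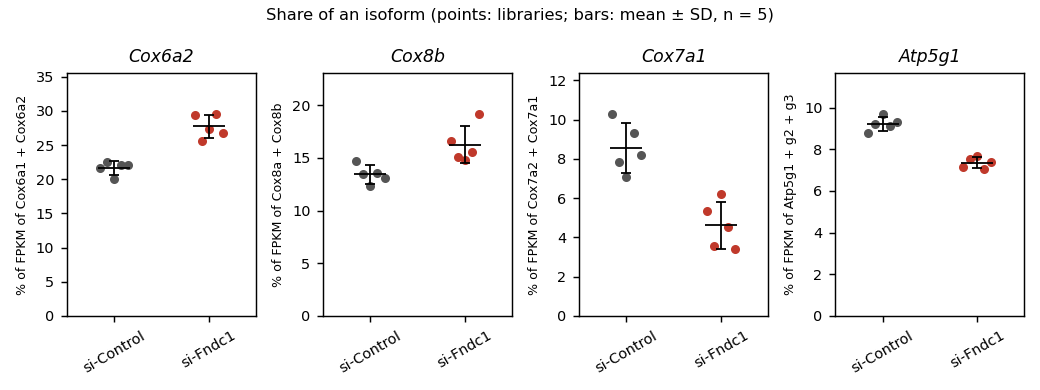
Share of *Cox6a2*, *Cox8b*, *Cox7a1* and *Atp5g1* in the FPKM of the genes for the same subunit, as a percentage, in each si-Control and si-*Fndc1* library (points) with the mean and SD of 5 libraries. The groups do not overlap in any of the 4 panels, with *Cox6a2* (21.7% and 27.8%) and *Cox8b* (13.4% and 16.3%) higher and *Cox7a1* (8.56% and 4.61%) and *Atp5g1* (9.21% and 7.35%) lower in si-*Fndc1*.

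The 7 members under the level filter were tissue-restricted forms or copies. *Cox4i2*, a form of lung and of low oxygen, *Cox6b2* and *Cox8c*, forms of testis, and another gene listed as *Atp5o* (ENSMUSG00000116933) were listed at 0 in every library. *Cox7b2* had a mean of 0.0506 FPKM in si-Control and 0.0354 in si-*Fndc1*, *Ndufa4l2* of 0.153 and 0.126 FPKM, and *Ndufb11b* of 0.00054 and 0.0001 FPKM, the last being the value the table gives to 0 reads.

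Other genes of oxidative phosphorylation were counted in the same fit. Of 54 assembly factors of the 5 complexes, 16 were called higher and 1 lower with a median log2 fold change of 0.07, and after the correction 7 of 52 were higher and 5 lower with a median of 0.00. The shares over all genes were 17.3% higher and 17.2% lower, and after the correction 11.4% and 12.2%. By complex the counts of assembly factors higher were 6 of 17 for complex I, 2 of 4 for complex II, 3 of 5 for complex III, 4 of 24 for complex IV and 1 of 5 for complex V. Among those of complex III, *Uqcc2*, needed for the synthesis of cytochrome b, rose by 0.45 (adjusted p = 5.17e-05) and *Uqcc1*, its partner, by 0.36 (adjusted p = 0.000453). Of 7 electron carriers and subunits whose symbols fell outside the member list, 3 were higher and 2 lower. After the correction 2 were higher and 3 lower. *Cyc1*, the cytochrome c1 subunit of complex III, was at 53.6, 63.5, 57.8, 61.4 and 56.6 FPKM in si-Control and at 40.2, 47.0, 48.2, 43.9 and 47.4 FPKM in si-*Fndc1*. It fell by 0.36 on the log2 scale (SE 0.06, adjusted p = 0.00101) with groups apart, and by 0.28 after the correction, so the redox subunits *Cyc1* and *Uqcrfs1* of the same complex had opposite signs. *Cycs*, cytochrome c, rose by 0.38 (adjusted p = 0.000245), but was at 0.12 after the correction (adjusted p = 0.0513), and *Ndufab1*, the acyl carrier protein of complex I, rose by 0.53 (adjusted p = 0.000212).

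The mitochondrially encoded subunits gave 9 higher and 0 lower of 13, with a median of 0.36, but 2 higher and 5 lower after the correction, with a median of -0.12. For this list and the 2 below, the shares over all genes were 17.3% higher and 17.2% lower. After the correction they were 11.4% and 12.2%. Of 12 tested regulators of mitochondrial biogenesis 2 were higher and 3 lower, and after the correction 1 was higher and 1 lower. *Gabpa* and *Tfam*, factors for nuclear and mitochondrial transcription, rose by 0.14 and 0.17 (adjusted p = 0.00336 and 0.0226), and after the correction they were at -0.05 and 0.00. *Esrra* and *Polrmt* fell by 0.25 and 0.40 (adjusted p = 0.0165 and 0.0016), and after the correction they were at 0.05 and -0.15 and not called. The coactivator *Ppargc1b* fell by 0.69 (adjusted p = 0.00108), and was still lower after the correction (-0.49, adjusted p = 0.00887). The related coactivator *Ppargc1a*, a driver of oxidative gene expression in muscle, was below the level filter, at 0.311 ± 0.0848 and 0.307 ± 0.0462 FPKM. Of 17 genes of the TCA cycle 6 were higher and 2 lower (median 0.04), and after the correction 4 were higher and 6 lower.

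By level in si-Control, per length, the most abundant transcript was in complex V *Atp5b* (231.4 ± 4.44 FPKM), in complex IV *Cox6a1* (213.1 ± 10.8 FPKM), in complex III *Uqcr11* (100.3 ± 5.13 FPKM) and in complex II *Sdhd* (63.8 ± 2.2 FPKM). The FPKM of a gene is divided by a length that the table's count and FPKM imply, which covers all exons listed, so a gene with long extra transcripts has a low FPKM.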

How the data were processed

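RNA-seq of C2C12 cells, 5 si-*Fndc1* and 5 si-Control libraries grouped by their titles, was analysed from a single table. Per the file headers it holds, for each library, counts per gene, which the authors deposited without normalization, and FPKM, which the authors derived from them with 0.0001 in place of 0. The methods name TopHat, mm10 and htseq-count, the series text STAR and mm9, and the submitters' notes cutadapt 1.9, FastQC and GRCm39. Overlaps between genes were read from the coordinates of the table, which names no build. The methods also name 4 libraries without saying which, so all 10 were kept, and the transfection reagent and time point differ between sources. No batch is given.

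The subunit list, the other gene lists and the rule for named genes were chosen with earlier results of these data known. Transcript type was read as containing protein_coding, since the table joins several types per gene (25 of the 87 members have that type alone), and 4 matching names without it and 13 pseudogenes were left out. Named were the genes of complex II, of the isoform sets and of the core subunits, in each complex the 3 calls with the smallest p and the highest and lowest level, and the members below the filter, and further members of those groups were chosen after their values were seen.

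Genes with a mean of at least 0.5 FPKM (13548) were tested on counts with edgeR 4.0.16 (R 4.3.3, TMM, quasi-likelihood) without covariates, and Benjamini-Hochberg values under 0.05 were called. Shares and sums used FPKM, with 0.0001 taken as 0. The alternatives were other scaling, filters, DESeq2 1.42.0, limma 3.58.1 on log2(FPKM + 1) and log2(FPKM + 0.1), the replicate number as a block, an offset for GC content and length (splines with 5 degrees of freedom by robust regression in every library, 82.6% of tested genes), leaving out mitochondrially encoded genes, and leaving out each library. GC content came from transcripts of build NCBIM37 and length from count and FPKM. All 20 pairs of libraries within a group differed by more than sampling noise in their counts. Code was tested on simulated data. The values of 1 tested member are not reported here by name, and it stays in the counts, medians and sums.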

Additional observations from a re-analysis of the deposited data

Results flagged for a closer look

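In 162 groups of 5 libraries (the tested members and *Fndc1*), 14 libraries lay further from the rest of their group than Dixon's 95% critical value of 0.71 allows, and chance flags about 1 in 20 groups. si-Control 2 gave 6 of them, all high, with *Cox5a* at 29.4 FPKM (the others 26.9 to 27.6), *Ndufs7* at 22.8 (18.2 to 19.5), *Ndufc2* at 50.9 (42.4 to 44.8), *Cox7b* at 78.8 (66.1 to 68.8), *Cox7a2* at 48.3 (40.5 to 42.3) and *Atp5md* at 28.6 (23.9 to 24.5). si-*Fndc1* 2 gave 3, all low, with *Ndufc1* at 18.2 FPKM (21.5 to 22.7), *Ndufv1* at 22.5 (24.8 to 25.7) and *Cox7a2l* at 36.5 (75.1 to 86.0). *Cox7a2l* was also low in si-Control 3, at 17.6 FPKM (60.7 to 68.7). *Atp5d* was low in si-Control 4, at 62.2 FPKM (67.8 to 68.5), and in si-*Fndc1* 5, at 68.4 (74.7 to 76.6). *Ndufa9* was high in si-Control 5, at 36.5 FPKM (34.5 to 35.0), and *Ndufb1* in si-*Fndc1* 5, at 47.7 (39.8 to 41.3).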

How the results depend on the processing

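The count of members called higher, 45, was 39 to 45 with each library left out and 36 with the replicate number as a block, of which 35 were among the 45. It was 43 with GC content alone corrected, 37 with length alone, 30 with both, and 27 with both and the replicate block. The count called lower, 1, was 0 under upper-quartile scaling, without the filter and under the replicate block. It was 2 in DESeq2 and with GC content alone corrected, and 3 with a minimum of 5 FPKM and in limma at both pseudocounts. It was 10 with length alone corrected, 11 with both corrected and 8 with both and the replicate block, and 0 to 4 with each library left out. The count was 0 without si-Control 2, 3 or 5 or si-*Fndc1* 1, 2 or 4, and it was 4 without si-*Fndc1* 3. *Fndc1* was at -0.07 with GC content and length corrected, and at -0.07 with the block as well. Signs changed for *Cox8b* (-0.01, length alone), *Ndufs7* (0.19, GC content alone) and *Uqcrc2* (-0.04, and -0.05 with the block), and for 24 further values of named members where neither value was called. The cause was not tested. The corrections for GC content alone and for length alone were chosen after the data were seen. Same-numbered libraries did not deviate together (correlations of -0.055 to 0.064), so the numbers were not taken as pairs. RLE scaling and leaving out mitochondrially encoded genes left 45 called.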
